A study of Rattus norvegicus with 17 samples.

Results

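Acsl5 is 1 of the 23487 genes in the count tables, and it was taken by its symbol, which is paired with the identifier ENSRNOG00000016265 on chromosome 1. It was selected on its measured difference between the groups in these same libraries, which was higher after kidney reduction while the genes of fatty acid oxidation were lower, so its own difference between the groups is given as a description, without a test. Of the 2007 genes that have a symbol, 8 begin with Acs, and the other 7 (Acsl1, Acsl3, Acsm1, Acsm3, Acss2, Acss3 and Acsf3) are set beside it. Kidney RNA came from male Wistar Han rats in 2 groups. Each library has its own sample number and was taken as 1 rat, without an animal identifier to check this. SNx (sub-total nephrectomy, 12 libraries) is a resection of part of the right kidney followed by removal of the left, so that the remnant kidney fails. The study set limits of proteinuria and serum creatinine for ending the experiment, but not every SNx rat reached them, and which of these libraries come from rats that did is not stated. NoOp (5 libraries) is the label of the controls. The study's methods name non-operated controls in its first experiment and sham-operated ones in its second. Whether these controls had surgery is therefore not settled by the label, and neither source gives the age of the rats. Each SNx library held 19210434 to 30784070 counts and each NoOp library 30454170 to 43876369, so SNx libraries mostly held fewer counts. The number of reads sequenced per library is not given. RNA integrity varied widely over the study's samples and is not given per library. The sample numbers of SNx fall in a lower range (SNx 1 to SNx 6) and an upper range (SNx 7 to SNx 12), with every NoOp library in the lower one, and the meaning of the ranges is not stated.

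Acyl-CoA synthetases join a fatty acid to coenzyme A, which every fatty acid needs before it can be oxidised, built into glycerolipids or used to extend other lipids. The family is divided by the length of the chain that its members prefer, with the ACSL enzymes taking long chains, the ACSM enzymes medium chains and the ACSS enzymes short ones. ACSL1 is widely linked to oxidation and lipid storage, and ACSL5, found on mitochondria and the endoplasmic reticulum, is best known from the intestine and liver. The proximal tubule, which makes up most of the renal cortex, draws much of its ATP from fatty acids oxidised in mitochondria and peroxisomes.

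The stretches before the start sites of Acsl5 and of a pair of family members that moved the other way are shown. They are the 250 bases before the RefSeq start site on build GRCr8, upstream of the first exon, written 5′ to 3′ on the strand of the gene, with matches to 6 searched motifs in capitals. Acsl5 lies at chr1:264294601-264294850 on the plus strand, Acsl1 at chr16:52532393-52532642 on the minus strand and Acsm3 at chr1:183564402-183564651 on the plus strand.
Acsl5: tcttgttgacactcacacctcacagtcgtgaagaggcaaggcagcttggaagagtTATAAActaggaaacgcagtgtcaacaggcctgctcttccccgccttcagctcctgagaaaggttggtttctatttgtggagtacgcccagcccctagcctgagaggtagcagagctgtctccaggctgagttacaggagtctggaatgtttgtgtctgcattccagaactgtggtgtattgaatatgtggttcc
Acsl1: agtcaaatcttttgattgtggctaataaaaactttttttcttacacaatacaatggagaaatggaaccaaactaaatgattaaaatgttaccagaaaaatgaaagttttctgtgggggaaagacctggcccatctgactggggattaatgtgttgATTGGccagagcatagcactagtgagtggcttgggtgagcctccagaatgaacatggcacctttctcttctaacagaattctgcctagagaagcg
Acsm3: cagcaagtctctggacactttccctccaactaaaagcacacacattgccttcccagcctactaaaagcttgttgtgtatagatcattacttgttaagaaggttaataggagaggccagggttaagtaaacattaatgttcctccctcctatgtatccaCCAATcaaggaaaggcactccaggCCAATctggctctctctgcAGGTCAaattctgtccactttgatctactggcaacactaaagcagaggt
Both strands were searched. The half-site of nuclear receptors was searched as AGGTCA, together with a direct repeat of it with a base between the copies, the kind of element bound by PPARs with RXR. The TATA box was searched as TATAAA. The box bound by the factor NF-Y was searched as CCAAT. The AP-1 element was searched as TGANTCA and the STAT element as TTCNNNGAA. In Acsl5 the capitals mark a TATAAA at -195 to -190 from the start site, a string held by 12.9% of the 33469 promoters of this length. In Acsl1 they mark a CCAAT box read on the opposite strand. In Acsm3 they mark 2 CCAAT boxes and 1 AGGTCA, a string that 14.1% of all promoters hold. Of the 8 family members 6 had an entry (Acsf3 and Acss3 did not), and CCAAT was found in Acsl1, Acsl3, Acsm1, Acsm3 and Acss2 but not in Acsl5, against 34.0% of all promoters. TGANTCA (6.34% of all promoters), TTCNNNGAA (7.67%) and the direct repeat (0.0508%) were found in none of the 6. A match describes letters only, and a link between a match and the direction of a gene was not tested.

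Acsl5 was higher in all 12 SNx kidneys than in any NoOp kidney, and it stood at nearly the same level in each of them. On the log2 CPM scale (counts scaled to library size adjusted by TMM factors, in logarithms), NoOp 1 to NoOp 5 held 5.24, 5.20, 5.43, 5.53 and 5.71. The SNx libraries ran from 6.05 in SNx 3 through a median of 6.26 to 6.43 in SNx 9. The groups did not overlap, and 0.34 log2 CPM lay between the highest NoOp and the lowest SNx library. The means were 5.42 ± 0.21 (SD, n = 5) in NoOp and 6.25 ± 0.11 (SD, n = 12) in SNx. The fitted log2 fold change was 0.82 (SE 0.08), a 1.77-fold higher level. Single SNx libraries stood between 1.54-fold and 2.01-fold of the NoOp mean. Estimated counts of Acsl5 reached 1785 in NoOp, from 1056, and 2677 in SNx, from 1511, although the SNx libraries held fewer counts in all. Of the 15438 genes tested, 58.0% were called in either direction, 30.3% were called higher in SNx and 13.5% had every SNx library above every NoOp library.

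**Figure D1:**
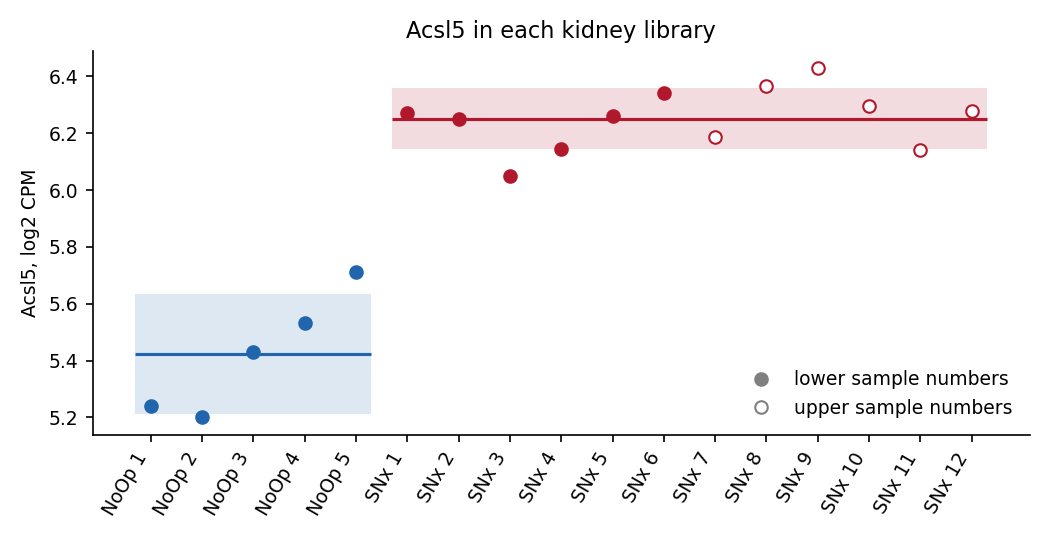
Acsl5 in log2 CPM (y axis) in each of the 17 libraries (x axis), with filled points for the lower and open points for the upper sample numbers. Lines are group means and bands are ± 1 SD, and the SNx points sit between 6.05 and 6.43, all above the highest NoOp point at 5.71.

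Of 18 family genes listed, 8 had an identifier, Acsl5 among them, and those without one could not be set beside it. The other members with an identifier were lower in SNx, whether of the long, medium or short chain class. All 7 passed the test (edgeR's quasi-likelihood test with Benjamini-Hochberg adjustment, FDR < 0.05, here and for the genes that follow), where 27.7% of all genes tested were called lower, but a gene had a symbol only if the study had listed it, in part from these samples. Every SNx library was below every NoOp library for 5 of the 7, against 9.60% of all genes tested. Acsm1 and Acss3 overlapped, each with 11 of 12 SNx libraries below every NoOp library.

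Among the long-chain members, Acsl1 (ENSRNOG00000010633) held 8.06, 8.20, 8.26, 8.35 and 8.29 log2 CPM in NoOp 1 to NoOp 5. In SNx it ran from 5.55 in SNx 1 through a median of 7.04 to 7.86 in SNx 4. Each SNx library was thus below each NoOp library, and the log2 fold change was -1.12 (SE 0.28, adjusted p = 0.0030). Acsl3 (ENSRNOG00000014718), a long-chain enzyme of the endoplasmic reticulum and lipid droplets, held 6.20, 6.14, 6.06, 6.21 and 6.13 log2 CPM in NoOp. It ran from 4.92 through a median of 5.46 to 5.99 in SNx, again without overlap, with a log2 fold change of -0.63 (SE 0.16, adjusted p = 0.0028). The long-chain members with an identifier were therefore split, with Acsl5 on one side of NoOp and Acsl1 and Acsl3 on the other.

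Of the medium-chain members, which act in the mitochondrial matrix, Acsm3 (ENSRNOG00000032246) had the largest fall of the family members with an identifier. It held 8.29, 8.51, 9.09, 8.45 and 8.32 log2 CPM in NoOp and ran from 0.60 in SNx 1 through a median of 5.96 to 7.64 in SNx 11. Its counts in SNx reached from 30 to 4607, a 132-fold range between its lowest and highest CPM, and its log2 fold change was -2.36 (SE 0.64, adjusted p = 0.0051). Acsm1 (ENSRNOG00000042084) had its lowest SNx library at 5.63 log2 CPM and its NoOp libraries at 9.96 to 10.64, with a log2 fold change of -1.60 (SE 0.50, adjusted p = 0.012). Fitted fold changes compare mean counts and so lean on the libraries in which a gene is high, which makes them smaller here than differences of mean log2 CPM.

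The short-chain members make acetyl-CoA or propionyl-CoA from the free acid. Acss2 (ENSRNOG00000018755), which activates acetate in the cytosol and nucleus, held 9.34, 9.57, 9.71, 9.79 and 9.64 log2 CPM in NoOp. It ran from 4.89 through a median of 7.63 to 9.17 in SNx, below every NoOp library, with a log2 fold change of -1.76 (SE 0.50, adjusted p = 0.0068). The mitochondrial Acss3 (ENSRNOG00000004448) changed by -0.81 (SE 0.21, adjusted p = 0.0044) on the log2 scale. Acsf3 (ENSRNOG00000015077), which activates malonate for mitochondrial fatty acid synthesis, changed by -0.90 (SE 0.19, adjusted p = 0.00079). SNx 1 was the lowest SNx library for each of these 7 genes, and SNx 4 or SNx 11 the highest, whereas Acsl5 in SNx 1 was near its group median at 6.27.

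**Figure D2:**
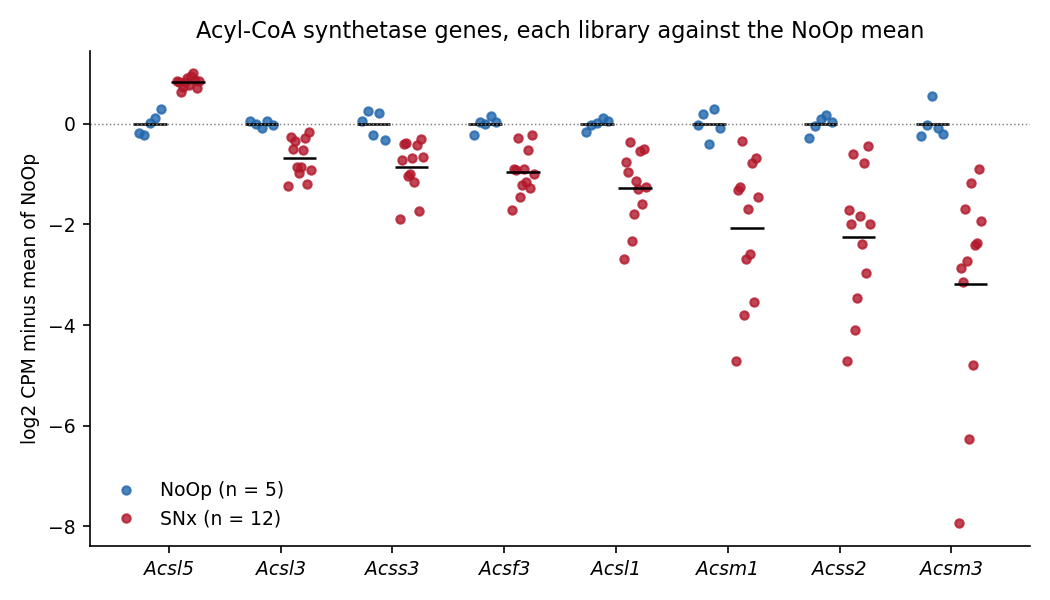
Log2 CPM minus the mean of the 5 NoOp libraries (y axis) for the 8 acyl-CoA synthetase genes (x axis), with 1 point per library and black lines for group means. The SNx points of Acsl5 lie 0.63 to 1.01 above the NoOp mean, and those of Acsm3 lie 0.89 to 7.94 below it.

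Because both genes of a ratio come from the same library, depth cancels in it. The log2 ratio of Acsl5 to each other member was higher in all 12 SNx libraries than in any NoOp library, for each of the 7 members. The shift in the mean ratio was smallest against Acsl3, at 2.84-fold (log2 ratio from -0.72 ± 0.23 to 0.78 ± 0.41, SD, n = 5 and 12). It was 4.28-fold against Acsl1 (from -2.81 ± 0.15 to -0.71 ± 0.76) and largest against Acsm3, at 16.1-fold (from -3.11 ± 0.40 to 0.90 ± 2.16). These ratios hold the values that chose Acsl5 and are a description of the shift, not a further test of it.

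The level of Acsl5 was even over the SNx libraries, which is given as a description with no test. Its SD over the SNx libraries was 0.11 log2 CPM, and its SNx libraries spanned a 1.30-fold range. The other members had SDs of 0.38 (Acsl3) to 2.12 (Acsm3). Of the 2596 other tested genes whose fitted fold change was at least as high as that of Acsl5, 0 had a smaller SD in SNx, and their median SD was 0.524. Among the 4672 genes called higher, whatever the size of the rise, 90 had a smaller SD. Of all 15438 genes tested, 4.70% had a smaller SD, and of the 2452 with a mean within 0.5 log2 CPM of that of Acsl5, 9.54% did. Spread was larger in SNx than in NoOp for 81.9% of the genes tested, while for Acsl5 the NoOp SD was 1.99 times the SNx SD. At the smallest SNx count of Acsl5, counting error alone is an SD of 0.0371 on the log2 scale, if the estimated counts are taken as plain read counts.

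**Figure D3:**
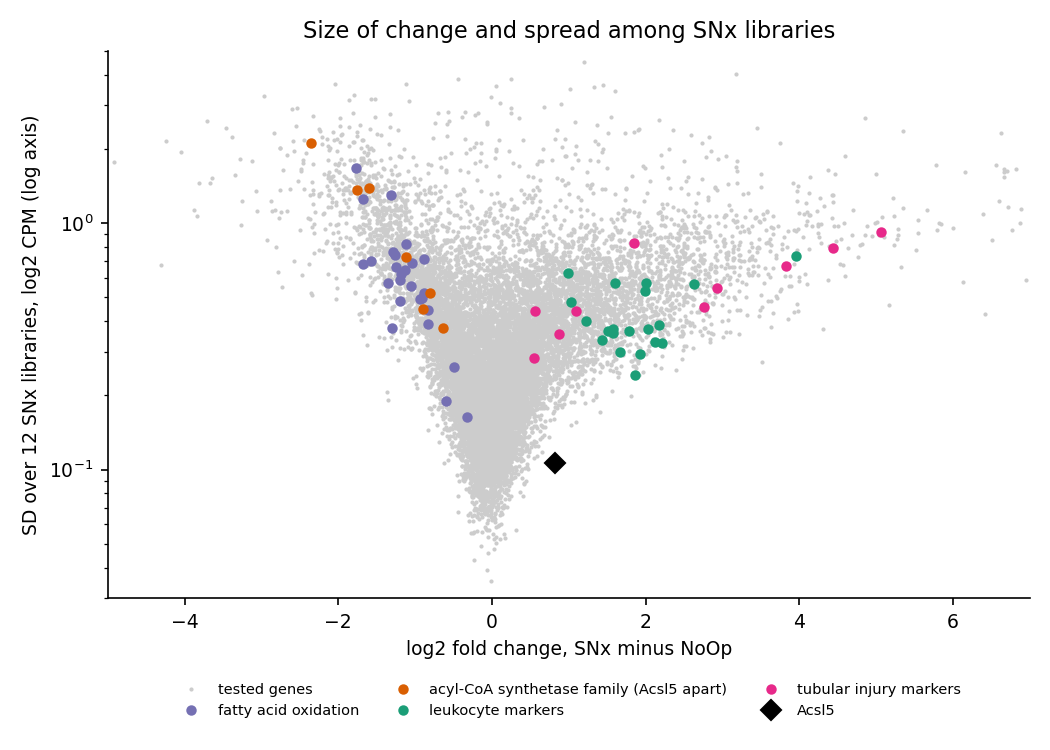
Log2 fold change, SNx minus NoOp (x axis), against the SD over the 12 SNx libraries in log2 CPM (y axis, log scale), with 1 point per tested gene, 21 of 15438 genes lying outside the axes. Acsl5 (black diamond, 0.82 and 0.11) lies at the lower edge of the cloud on the side of genes that were higher, and the other family members lie on the opposite side at SDs of 0.38 to 2.12.

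Genes listed under fatty acid oxidation were lower among those with an identifier. Of the 55 genes in a list of fatty acid oxidation, 26 had an identifier, and 26 of these 26 were called lower in SNx and 0 higher, against 27.7% of all genes tested called lower. Their median log2 fold change was -1.15, against 0.02 over all genes tested. The groups did not overlap for 14 of them, where 9.60% of all genes tested had every SNx library below every NoOp library. Symbols came from lists of genes the study selected, in part on these samples. The lower level of these genes in these libraries was also known when Acsl5 was chosen. Neither these counts nor the p-values of single members below are therefore independent evidence of a direction.

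At entry into the mitochondrion, Cpt1a, the rate-limiting carnitine palmitoyltransferase, changed by -0.59 (SE 0.10, adjusted p = 0.00021) on the log2 scale. It ran from 7.70 to 8.29 log2 CPM in SNx and from 8.44 to 8.97 in NoOp. Mlycd, which removes the malonyl-CoA that inhibits CPT1, changed by -1.20 (SE 0.21). The list groups 12 genes with an identifier under mitochondrial beta oxidation, not all of them specific to fatty acids. All 12 were lower, from -0.84 for Acad8 to -1.57 (SE 0.28) for Acad10, an acyl-CoA dehydrogenase. Hadh, the short-chain hydroxyacyl-CoA dehydrogenase, changed by -1.35 (SE 0.22) and ran from 5.40 to 7.35 log2 CPM in SNx and from 7.82 to 8.16 in NoOp.

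All 11 genes of peroxisomal oxidation with an identifier were lower as well, from -0.33 for Crot to -1.77 for Amacr. Ech1, a dienoyl-CoA isomerase, changed by -1.30 (SE 0.17), with SNx libraries at 5.69 to 6.80 log2 CPM and NoOp libraries at 7.10 to 7.85. Hacl1, which shortens phytanic acid by alpha oxidation, changed by -1.68 (SE 0.27) on the log2 scale. In SD over SNx, none of the 26 was as even as Acsl5, the nearest being Crot at 0.163.

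**Figure D4:**
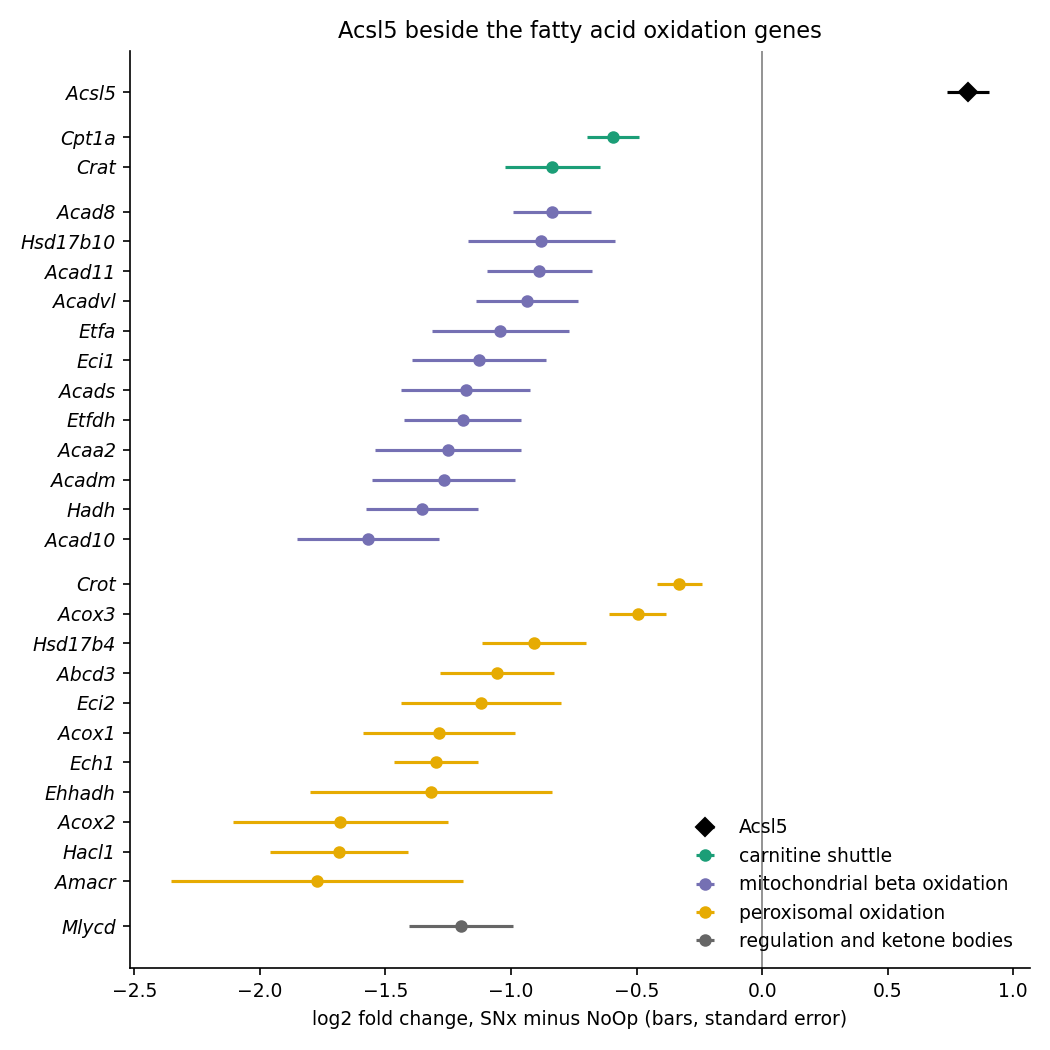
Fitted log2 fold changes, SNx minus NoOp (x axis), of Acsl5 and of the 26 fatty acid oxidation genes with an identifier (y axis), coloured by role, with bars for standard errors. Acsl5 lies at 0.82 and the 26 others lie between -1.77 (Amacr) and -0.33 (Crot).

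Acyl-CoA can also be split, bound or built into lipids. The limit set by the choice of identifiers holds for these lists too. In the list of acyl-CoA handling, 8 of 32 genes had an identifier, of which 5 were called lower and 0 higher (median log2 fold change -1.12), against 27.7% and 30.3% of all genes tested. The lower ones included the thioesterases Acot12 (-2.46, SE 0.55, adjusted p = 0.0014) and Acot1 (-1.01, SE 0.25, adjusted p = 0.0029) and the fatty acid transporter and very-long-chain synthetase Slc27a2 (-1.66, SE 0.41, adjusted p = 0.0025). Acot5, Fabp4 and Aacs were not called, at -1.70, -0.62 and 0.24. Of the list of glycerolipid synthesis and lipid droplets, 8 of 37 genes had an identifier, of which 2 were called higher and 6 lower (median -1.24). The share called higher was near the 30.3% of all genes tested, and 27.7% of all were called lower.

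Lpcat2, a lysophosphatidylcholine acyltransferase found in inflammatory cells, changed by 1.65 (SE 0.14, adjusted p = 2.2e-07), and Lpcat1, its relative best known from lung surfactant synthesis, changed by 1.13 (SE 0.19, adjusted p = 0.00017). Mgll, which hydrolyses monoacylglycerol, changed by -1.75 (SE 0.34). Only 3 of 20 fatty acid synthesis genes had an identifier, and all 3 were lower, where 27.7% of all genes tested were, namely the elongases Elovl1 (-0.90, SE 0.12) and Elovl2 (-1.21, SE 0.24) and the NADPH-producing malic enzyme Me1 (-1.06, SE 0.30).

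In whole kidney tissue, fewer cells of a type and less RNA per cell cannot be told apart. A marker, too, had an identifier only if the study had listed it, in part from these samples. The marker counts here and in the next paragraph are therefore not independent evidence of a direction. Of 19 proximal tubule markers with an identifier (27 listed), 16 were called lower (27.7% of all genes tested), among them the endocytic receptor Cubn (-0.81, SE 0.21), the brush border peptidase Dpp4 (-1.26, SE 0.24) and the transcription factor Hnf4a (-1.37, SE 0.34). Summed levels, here and for the lists that follow, were scaled to plain library size, unlike the log2 CPM of single genes. The sum of the proximal tubule markers was 25218 to 28693 CPM in NoOp and 2227 to 20082 CPM in SNx. With SNx of the lower sample numbers alone, 8 of the 19 were called lower. All 20 leukocyte markers with an identifier (31 listed) were called higher, against 30.3% of all genes tested, Coro1a by 2.12 (SE 0.18), Laptm5 by 1.86 (SE 0.15) and Lcp1 by 1.93 (SE 0.16) on the log2 scale, and their sum was 194 to 291 CPM in NoOp and 624 to 1434 CPM in SNx.

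All 7 fibroblast and matrix markers with an identifier (19 listed) were called higher, against 30.3% of all genes tested, Col3a1 by 2.74 (SE 0.39), Col6a1 by 1.93 (SE 0.30) and Fn1 by 2.02 (SE 0.29), with sums of 589 to 659 CPM in NoOp and 2080 to 13894 CPM in SNx. All 10 tubular injury genes with an identifier (14 listed) were called higher, against the same 30.3%, Cd44 by 2.76 (SE 0.25), Clu by 3.83 (SE 0.35) and Spp1 by 4.44 (SE 0.46), with sums of 750 to 1140 CPM in NoOp and 3655 to 19167 CPM in SNx. Of 16 distal nephron and collecting duct markers, 1 had an identifier, the anion exchanger Slc26a4, which was lower at -0.72 (SE 0.18). No marker with an identifier was at 0 in all libraries. The part of these cell types in the higher level of Acsl5 was not tested.

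Whether Acsl5 followed the other genes from one SNx kidney to the next was tested within the 12 SNx libraries. These libraries entered the difference that chose the gene, but their order among themselves did not. Of 13 relations 0 passed after adjustment, and 0 had an unadjusted p under 0.05, by Pearson's r or Spearman's rho (100000 permutations, two-sided). With the mean of the fatty acid oxidation genes r was -0.32 (95% interval -0.76 to 0.31, permutation p = 0.307, adjusted p = 0.554, rho = -0.42, permutation p = 0.179, n = 12). Without the 2 libraries farthest from the median of that mean, SNx 1 and SNx 5, r was -0.42 (n = 10). With 1 library left out r ran from -0.56 to -0.22. The lowest of these was without SNx 9, the library with the highest Acsl5 (permutation, adjusted p = 0.133, n = 11). With library size alone as the scaling r was -0.58 (permutation, adjusted p = 0.115, n = 12). Within the lower and the upper sample numbers it was -0.57 and -0.29 (n = 6 each). The interval holds relations from strongly negative to moderately positive, so these libraries do not settle whether the genes move together.

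With the 7 other family members r was between -0.39 (Acss3) and -0.23 (Acsl3), negative in all 7. Without SNx 9 they were between -0.65 (Acss3) and -0.50 (Acsm3), and none passed. Leaving out SNx 4 or SNx 11 brought some of them closer to 0, to -0.11 for Acsl3 without SNx 11. With Acss3 the permutation p was 0.211 and rho was -0.55 (permutation p = 0.0714, adjusted p = 0.317, n = 12). With Acsl1 r was -0.26 (95% interval -0.73 to 0.37). For the marker means r was -0.34 with the proximal tubule, -0.12 with leukocytes, -0.08 with fibroblasts and matrix, and 0.43 with tubular injury genes (95% interval -0.19 to 0.81, permutation p = 0.162, adjusted p = 0.554, rho = 0.45, n = 12), the last at 0.66 and 0.54 within the lower and upper sample numbers. Without SNx 9 r was -0.58 with the proximal tubule, -0.21 with leukocytes and 0.02 with fibroblasts and matrix. For the proximal tubule, r with 1 library left out ran from -0.58 to -0.26. With total counts r was -0.28 over all 12, -0.76 without SNx 9, 0.010 without SNx 3, -0.92 within the lower sample numbers (exact permutation p = 0.0028, adjusted p = 0.036, n = 6) and 0.45 within the upper ones, so the ranges differed in sign.

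**Figure D5:**
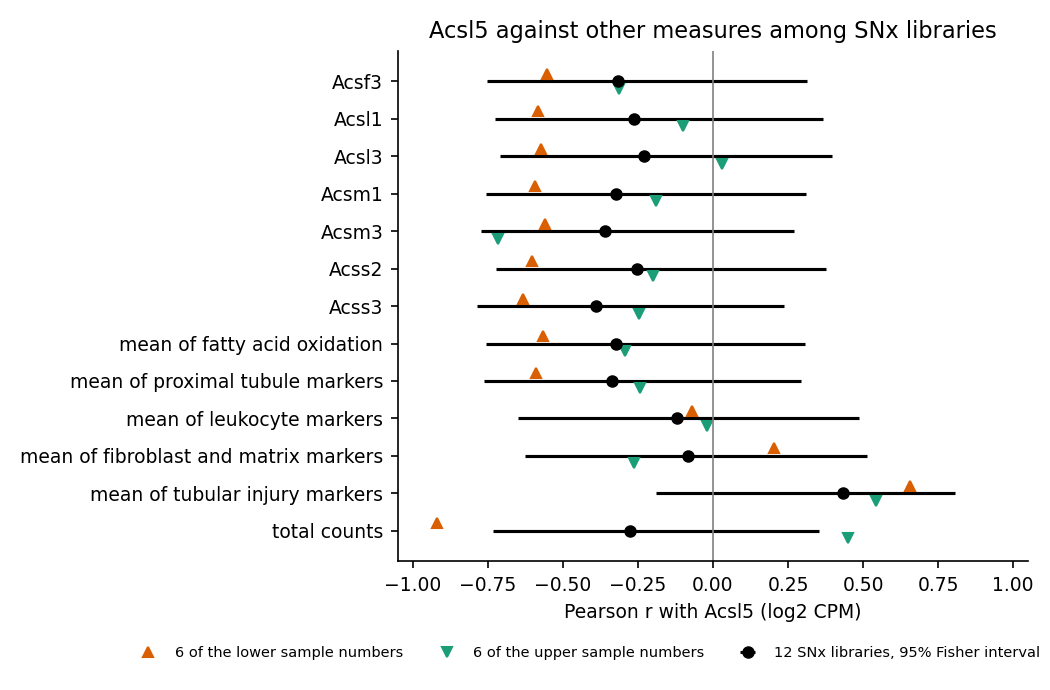
Pearson r with Acsl5 in log2 CPM (x axis) for 13 measures (y axis) over the 12 SNx libraries, with 95% Fisher intervals, and triangles for r within the 6 libraries of each range of sample numbers. Every interval over 12 libraries holds 0, and the total counts show the widest gap between ranges, from -0.92 to 0.45.

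Acsl5 did not differ detectably between the ranges of sample numbers. It was 6.22 ± 0.10 log2 CPM (SD, n = 6) in the lower and 6.28 ± 0.11 (SD, n = 6) in the upper range, a difference of 0.06 (two-sided exact permutation test over all splits, p = 0.323).

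The genes whose levels ran most like Acsl5 over the 12 SNx libraries, among 1897 tested genes with a symbol and a mean of at least 1 log2 CPM, were ranked by Pearson's r as a description. The 5 highest were Sh2d4a (0.84), Elf3 (0.80), St14 (0.69), Kcnk1 (0.67) and Pmvk (0.67). Elf3 is an epithelial transcription factor, St14 encodes the epithelial membrane protease matriptase, Kcnk1 a potassium channel and Pmvk phosphomevalonate kinase. Elf3 was higher in SNx (log2 fold change 1.16, SE 0.17, adjusted p = 4.4e-05), as were Sh2d4a (0.45), Kcnk1 (0.52) and St14 (0.29), and Pmvk was not called at 0.23 (SE 0.12, adjusted p = 0.111). The 5 lowest were Adap2 (-0.72), Bnc2 (-0.70), Wdr91 (-0.66), Mfsd7 (-0.64) and Tmem64 (-0.63), all called lower in SNx. Of all genes tested, 30.3% were called higher and 27.7% lower. Symbols came from genes the study had listed, in part from these samples, so these directions are not independent evidence. Whether values of r of this size exceed chance was not tested. Over all 15437 other tested genes r ran from -0.86 to 0.87 with a median near 0, and the points share libraries and depth.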

How the data were processed

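Strand-specific libraries were made after depletion of ribosomal RNA and read from both ends. Against rn6 the authors quantified transcripts, for which the submitters' notes name Salmon and limma (versions not given in the sources used here). The study's methods name length-scaled TPM as the summary unit, and whether the deposited counts carry that scaling was not tested. The authors deposited estimated counts per gene, as raw whole numbers, for 23487 genes. They also deposited normalized values, scores on the voom log2 scale, for 13318 genes, whose selection is not stated. All 34 columns of the tables for the whole series equalled the library files and were left out.

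Counts were filtered with filterByExpr, scaled by TMM and tested in R 4.3.3 with edgeR 4.0.16 (quasi-likelihood, two-sided, Benjamini-Hochberg over 15438 genes, FDR < 0.05). Levels are log2 CPM with a prior count of 2, and the summed CPM of the marker lists used plain library size without TMM. Each standard error is the fold change divided by the square root of F. Correlations within SNx used 100000 permutations, or all orders for 6 libraries. P-values measure the spread between libraries, each taken as 1 rat. On simulated counts for the SNx and NoOp comparison (15438 genes) edgeR called 78 of 100 genes changed 2-fold, 92 of 100 changed 4-fold and 7 unchanged genes. The simulation gave each gene the same dispersion in both groups and changed few genes. Spread in the data was mostly larger in SNx and many genes were called, so these rates need not hold there.

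Symbols came from the study's supplementary lists, and only these were read from them. Columns of the authors' fold changes and p-values there were not used. Acsl5 and the gene lists were chosen with earlier results of these data known. A member of the fatty acid oxidation list is not reported here and was left out of its counts. Genes named are the Acs family, the 6 fatty acid oxidation genes and up to 3 genes of every other list with the smallest p, members of the fatty acid oxidation list that were not lower (there were none), and 5 genes at each end of the likeness ranking. Acad8, Amacr, Crot, Acot5, Fabp4 and Aacs were named after their values were seen. As alternatives, limma 3.58.1 (voom, and on the deposited normalized values) and DESeq2 1.42.0 replaced edgeR, RLE or plain library size replaced TMM, the filter was dropped or raised (a minimum of 10 in all libraries), the prior count was 0.5, and single libraries or a range of sample numbers were left out. Promoters came from RefSeq (GRCr8). Plots were made in matplotlib 3.10.9 (Python 3.11.15).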

Additional observations from a re-analysis of the deposited data

Results flagged for a closer look

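In 2 of the 46 named genes, 1 NoOp library stood far from the other 4, where chance gives about 2.3 such genes. Acsm3 was 9.09 log2 CPM in NoOp 3 and 8.29 to 8.51 in the others. Lcp1, a leukocyte marker, was 4.43 log2 CPM in NoOp 5 and 4.96 to 5.16 in the others. Acsl5 had no such library.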

How the results depend on the processing

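No paired analysis was possible because the labels give the groups no shared replicate numbers. The log2 fold change of Acsl5 was 0.76 to 0.90 with 1 library left out and at most 1.02, the value with library size alone. That scaling moved the median of all genes from 0.02 to 0.23 and the share of calls that were higher from 52.2% to 74.6%. The 7 other family members stayed lower and past the threshold under all 26 alternatives. Genes called numbered 7914 to 9438 with 1 library left out and 7317 to 9447 over all alternatives. The fatty acid oxidation genes called lower numbered 25 or 26 throughout. With SNx of the lower sample numbers alone, 8 proximal tubule markers were lower in place of 16, and 1 relation within SNx, with total counts, passed. Relations that changed sign were Acsl3 at 0.0294 within the upper sample numbers, leukocyte markers at 0.208 with library size alone and -0.265 to 0.0928 with 1 library left out (highest without SNx 8), and fibroblast and matrix markers at 0.210 with library size alone, 0.203 within the lower sample numbers and -0.302 to 0.0436 with 1 library left out (above 0 without SNx 8 or SNx 9). With total counts r was 0.450 within the upper sample numbers and -0.765 to 0.010 with 1 library left out (above 0 without SNx 3), and the cause was not tested. Without SNx 6 and SNx 8, the 2 libraries farthest from the median of the leukocyte mean, its r was 0.306 (n = 10). This was the only relation that changed sign when its 2 farthest libraries were left out. With 12 SNx libraries, correlations of moderate size could not be told from 0. The difference of Acsl5 between ranges of sample numbers was 0.03 to 0.09 under its 15 alternatives.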
